A study of Homo sapiens with 52 samples.

Results

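DNA replication and nucleotide supply genes were followed in WI-38 cells, a strain of normal human lung fibroblasts, as the cells entered senescence by 4 routes. The 48 members were taken by gene symbol out of the 59408 genes listed, and all 48 were among the 14876 genes whose mean level over the 26 groups was at least 10 normalized counts, the filter used for every test. The genotype label is WT for untreated cells, Telomere shortening for RS and SDS-treated, KCl-treated or DXR-treated for the rest, and names no genetic change. Cells were given 0.009% SDS for PMD-Sen (plasma membrane damage), 75 mM KCl for Ca2+-Sen (calcium influx) or 250 nM doxorubicin (DXR) for DDR-Sen (DNA damage response), each for 24 h. They were then washed and collected on days 0, 1, 2, 3 and 4 and then days 6, 8 and 16, where day 0 is the end of the treatment. RS cells had been passaged to replicative senescence at a population doubling level of 52. The untreated cells, young cells at a population doubling level of 32 to 46, were the control of every comparison. No population doubling level is given for the cells treated with SDS, KCl or doxorubicin. Each of the 26 groups had 2 libraries, described as independent samples, and the deposited tables hold 1 value per comparison and none per library.

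Every comparison shares the same 2 untreated libraries, of 15.4 and 18.8 M counted reads, while those of the treated groups and RS ranged from 19.1 to 58 M. An error in the untreated libraries would therefore move all 25 comparisons together. Fibroblast markers were present in all groups (8 of 8 at a mean level of 10 or more), against 1 of 6 epithelial (KRT19), 2 of 5 endothelial (PECAM1 and VWF) and 1 of 6 leukocyte markers (CD14). The summed leukocyte markers went from 15.9 on PMD-Sen day 1 to 204 in RS and the summed fibroblast markers from 238469 on Ca2+-Sen day 0 to 616289 on Ca2+-Sen day 8, and their part in the results below was not tested. KRT5, SFTPC, CDH5 and CD3E, which define other cell types, had a median of 0 over the 26 groups, KRT14 one of 0.105 and PTPRC one of 1.07 normalized counts. In these bulk libraries, fewer cells in S phase and less RNA per cell cannot be told apart.

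Replication is prepared in G1, when the origin recognition complex, CDC6 and CDT1 load the ring of MCM2 to MCM7 onto DNA. The kinases of S phase, DBF4 with CDC7 among them, then recruit CDC45 and the GINS complex, which turn the ring into the active helicase. DNA polymerases alpha, delta and epsilon copy the strands, and the sliding clamp PCNA, which the RFC complex loads, holds delta and epsilon. Ribonucleotide reductase, thymidylate synthase and thymidine kinase provide the nucleotides. Many of these genes are transcribed at the G1/S border under E2F factors and are kept low in arrested cells by RB family proteins.

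To show what the promoters of these genes hold, RefSeq windows on GRCh38.p14, from 250 bases before to 50 after a transcription start, were matched for 40 of the 48 members (none for MCM4, MCM5, GINS4, POLD3, DSCC1, RPA2, RPA3 and FAM111B). An E2F core, searched on both strands as TTNNCGC with each N a C or a G, was found in at least 1 window for 34 of these 40 genes (85%). The share was 35.1% of 37 other genes of the same processes and 15.3% of all 27305 genes. By windows, of which some genes have several, the share was 67.3% for the members, 27.5% for other genes of the same processes described further on, and 13% of all 35116 windows. CCAAT was found in 52.7%, 47.1% and 34.6% and the CHR element (TTTGAA, searched together with its other known form, TTCGAA) in 7.27%, 5.88% and 16.4%. The members with no E2F core were CDC45, DBF4, FEN1, MCM10, ORC6 and POLD1. A match is a run of letters and not a measured binding site. Both lists were drawn up with results of these data known, so their shares are a description.

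The 200 bases before the start are shown for 6 members, with 15 bases after it for CDC6. PCNA, TK1 and RRM2 have another start as well, and the start whose window held the most E2F cores was printed. The windows of their other starts held 0 E2F cores, with 2, 0 and 3 CCAAT matches in that order. CDC6 and PCNA are the members that rose in a comparison, TK1 and MCM6 fell in all 25, RRM2 had the deepest fall, and MCM10 fell deeply with no E2F core. They lie on GRCh38.p14 at chr17:40287679-40287893 (+ strand), chr20:5126623-5126822 (- strand), chr17:78187053-78187252 (- strand), chr2:135876444-135876643 (- strand), chr2:10122368-10122567 (+ strand) and chr10:13161358-13161557 (+ strand). Each is written 5′ to 3′ on the gene's strand, and capitals mark E2F cores and CCAAT on either strand.
CDC6: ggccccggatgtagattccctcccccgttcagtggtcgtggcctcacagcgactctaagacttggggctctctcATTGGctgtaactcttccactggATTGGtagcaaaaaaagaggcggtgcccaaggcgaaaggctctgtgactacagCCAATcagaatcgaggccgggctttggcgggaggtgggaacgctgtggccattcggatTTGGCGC
PCNA: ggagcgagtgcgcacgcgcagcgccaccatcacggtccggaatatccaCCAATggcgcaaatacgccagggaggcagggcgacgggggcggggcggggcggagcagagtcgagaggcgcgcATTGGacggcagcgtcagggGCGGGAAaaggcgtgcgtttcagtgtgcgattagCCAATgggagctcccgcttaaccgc
TK1: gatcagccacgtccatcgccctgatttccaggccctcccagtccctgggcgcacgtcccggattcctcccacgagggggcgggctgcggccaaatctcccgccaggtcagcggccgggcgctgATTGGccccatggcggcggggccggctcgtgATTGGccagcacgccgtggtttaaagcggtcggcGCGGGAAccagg
MCM6: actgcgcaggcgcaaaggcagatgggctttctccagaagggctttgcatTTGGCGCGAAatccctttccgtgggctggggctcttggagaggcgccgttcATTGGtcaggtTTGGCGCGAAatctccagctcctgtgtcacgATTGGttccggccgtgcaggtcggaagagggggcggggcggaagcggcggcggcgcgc
RRM2: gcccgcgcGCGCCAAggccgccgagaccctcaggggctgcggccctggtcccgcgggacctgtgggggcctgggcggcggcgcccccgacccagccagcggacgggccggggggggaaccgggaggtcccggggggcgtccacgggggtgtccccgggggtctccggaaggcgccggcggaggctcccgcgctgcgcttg
MCM10: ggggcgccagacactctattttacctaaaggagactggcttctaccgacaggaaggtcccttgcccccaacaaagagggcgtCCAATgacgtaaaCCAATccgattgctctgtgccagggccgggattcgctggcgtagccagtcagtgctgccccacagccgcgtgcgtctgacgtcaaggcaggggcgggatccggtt
MCM6 holds several E2F cores, which overlap where the capitals run on, while CDC6, PCNA, TK1 and RRM2 hold 1 each and MCM10 holds only CCAAT.

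The median member was lower than untreated in every comparison, most after doxorubicin and in RS and least on days 1 and 2 after SDS or KCl. Values are given as log2 change ± standard error, with 25 comparisons in all. A gene was called where the Benjamini-Hochberg adjusted p over the 14876 tested genes was under 0.05, and these p-values measure only the spread between the libraries of these groups, all from 1 cell strain. Over the 8 days of PMD-Sen, in order, 43, 18, 25, 40, 45, 45, 45 and 45 of the 48 members were called lower, beside 20.2%, 10%, 7%, 6.07%, 8.39%, 6.98%, 6.05% and 11.6% of all tested genes. In Ca2+-Sen the counts were 47, 29, 18, 41, 41, 41, 47 and 42, beside 26.6%, 7.15%, 2.57%, 5.72%, 7.04%, 5.53%, 17.8% and 6.09%. In DDR-Sen they were 45, 46, 45, 45, 47, 46, 45 and 47, beside 14.9%, 11%, 7.49%, 6.88%, 10.5%, 13.8%, 11.8% and 16.7%, and in RS 47, beside 11.6%.

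The median log2 change over the 48 members, on the same days, was -1.47, -0.40, -0.49, -0.91, -1.29, -1.31, -1.14 and -1.61 in PMD-Sen. It was -1.58, -0.65, -0.50, -0.94, -0.90, -1.17, -1.55 and -0.83 in Ca2+-Sen. In DDR-Sen it was -2.19, -2.04, -1.93, -1.61, -1.70, -2.01, -1.85 and -1.96, and in RS -2.00. The median over all tested genes stayed between -0.036 and 0.016. A shallow point at days 1 and 2 thus stood between 2 deep ones after SDS and KCl, while after doxorubicin no day had a median above -1.61.

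**Figure D1:**
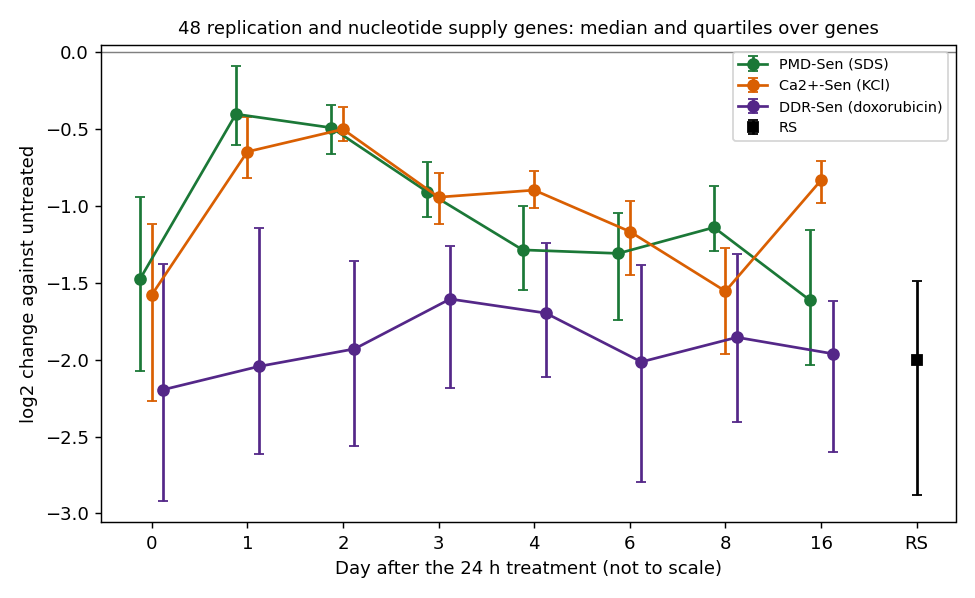
Median log2 change against untreated of the 48 members (vertical axis) by day after the treatment and in RS (horizontal axis, not to scale); points are medians over genes and bars the quartiles over genes, not errors over libraries. The PMD-Sen and Ca2+-Sen medians rise to -0.40 on day 1 and -0.50 on day 2, while DDR-Sen stays at or below -1.61.

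Of the 1200 pairs of a member and a comparison, 1025 were called lower, 2 were called higher and 173 were not called. MCM2, MCM3, MCM5, MCM6, MCM7, CDC45, POLA1, TK1 and UHRF1 were called lower in all 25 comparisons, as were 64 of all tested genes. POLA2 and RPA3 were called lower in 10 comparisons each and RPA2 in 1, and all the others in at least 15. The 2 higher calls were CDC6 on PMD-Sen day 0, where 19.8% of all tested genes were called higher, and PCNA on DDR-Sen day 0, where 13% were.

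**Figure D2:**
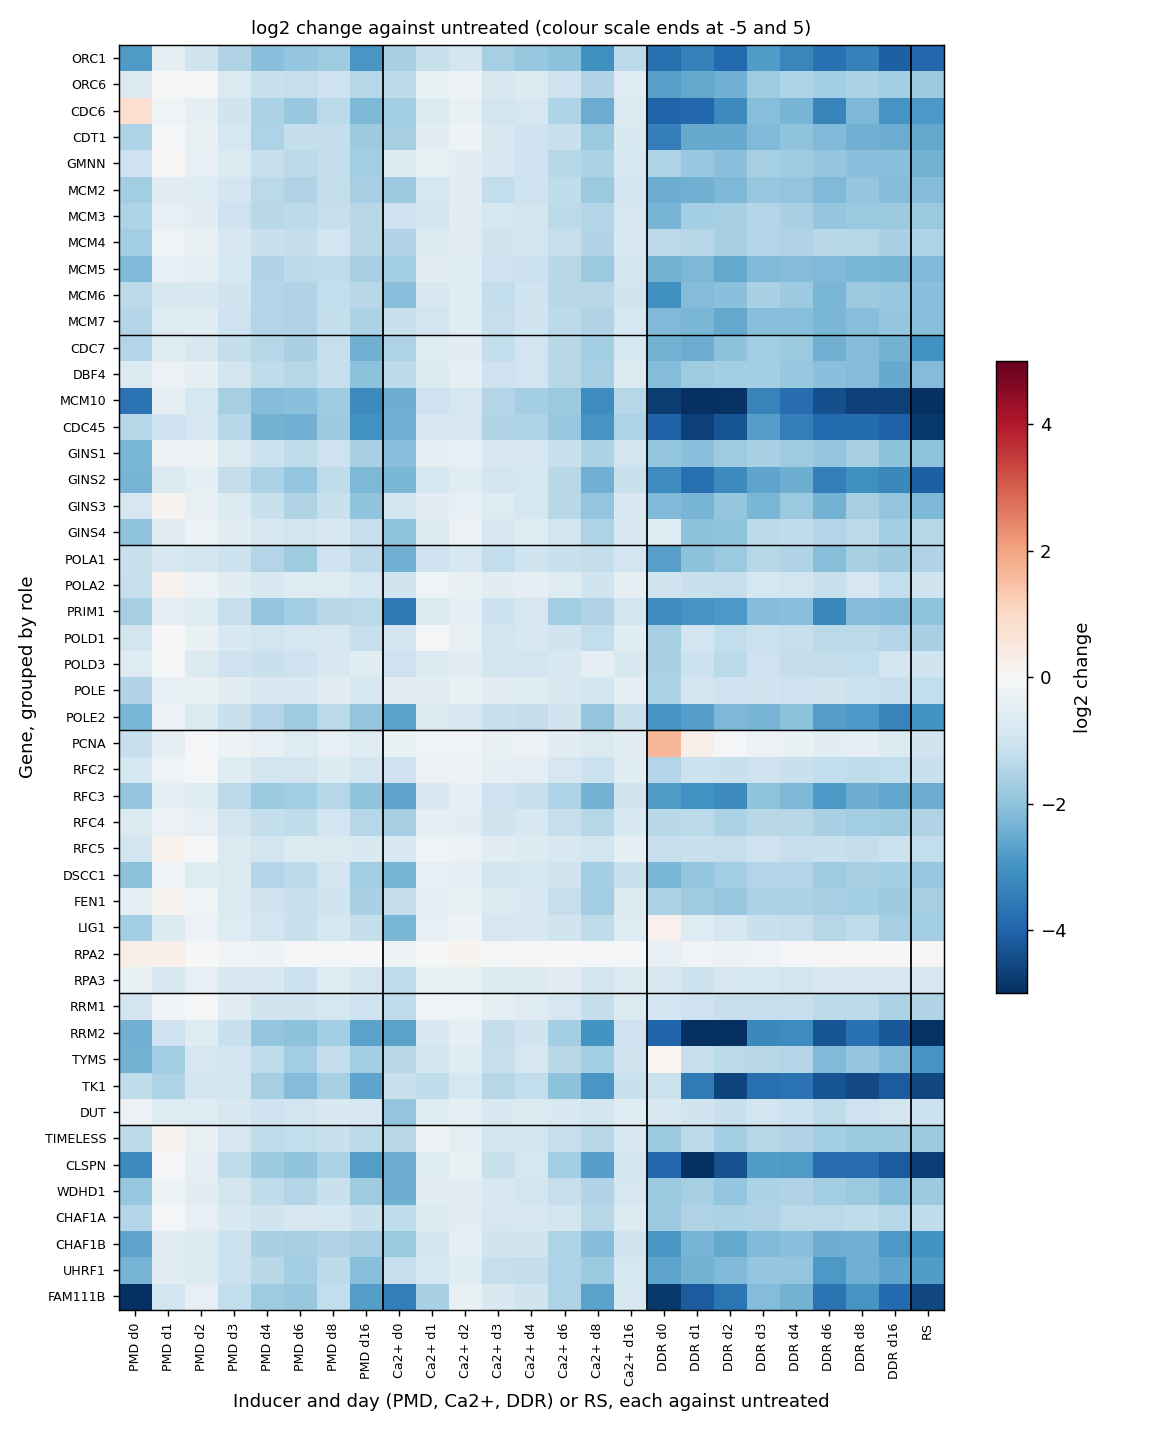
Log2 change against untreated (colour) for the 48 members (rows, in 6 groups by role) in 25 comparisons (columns, in blocks of PMD-Sen, Ca2+-Sen, DDR-Sen and RS). Nearly all cells are blue, the 2 called red cells are CDC6 on PMD-Sen day 0 (0.82) and PCNA on DDR-Sen day 0 (1.64), and RPA2 is pale throughout.

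The 11 genes of origin licensing and its control had medians over genes from -2.47 to -0.40 in the 25 comparisons. Of the 11, 5 were called lower on PMD-Sen day 1 and 11 on DDR-Sen day 1. All 6 subunits of the MCM2 to MCM7 ring moved down. Their untreated levels ran from 698 normalized counts for MCM2 to 2722 for MCM7. MCM6 went from 1016 untreated to 406, 578, 589.9, 503, 369.7, 358, 430.2 and 384 normalized counts over the 8 PMD-Sen days. In Ca2+-Sen its levels were 236, 586, 668, 435, 513, 387, 388 and 505. In DDR-Sen they were 121, 225, 239, 333, 288, 208, 289.9 and 269.6, and in RS 241. Every treated level of MCM6 lay below the untreated level, and the lowest was that of DDR-Sen day 0, a log2 change of -3.08 ± 0.17, adjusted p = 7.59e-73. On that day the other ring genes changed by -2.47 (MCM2), -2.33 (MCM3), -1.31 (MCM4), -2.38 (MCM5) and -2.23 (MCM7), and all were called lower. Over all treated groups and RS, MCM2 lay between 126 and 471 normalized counts against 698 untreated, and MCM3 between 267 and 1010.0 against 1341. MCM4 lay between 603 and 1780.4 against 1987, and MCM5 between 249 and 1111 against 1467. MCM7 lay between 462 and 1783 against 2722. No group of any ring gene reached the untreated level, and MCM4 was the one ring gene not called in a comparison, PMD-Sen day 1 (-0.16 ± 0.10, adjusted p = 0.348). An exon overlap on the other strand covers 23.6% of the exon bases of MCM2, and since the strand setting of the counting is not given in the sources used here, reads of the overlapping gene may be among its counts.

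CDC6, the loader that brings the MCM ring to the origin recognition complex (chr17:40287879-40304657, + strand, GENCODE on GRCh38), parted from the ring on the first day. From 642 normalized counts untreated it stood at 1136, 555, 455, 325, 213, 171, 255 and 134 over the PMD-Sen days. The Ca2+-Sen levels were 199, 391, 497, 337, 356, 222, 116 and 385, and in DDR-Sen at 40.2, 42.1, 70.4, 148, 129.8, 64.7, 135 and 82.7, with 88 in RS. PMD-Sen day 0 was the only group above the untreated level, at a log2 change of 0.82 ± 0.17, adjusted p = 7.25e-06, while on the same day CDC6 fell by 1.69 in Ca2+-Sen and by 4.00 in DDR-Sen on the log2 scale. On day 0 PMD-Sen minus DDR-Sen was 4.82 (95% interval 4.29 to 5.35, adjusted p = 1.58e-68) and PMD-Sen minus Ca2+-Sen 2.52 (95% interval 2.05 to 2.99, adjusted p = 5.65e-24). Its partner CDT1 fell on PMD-Sen day 0 (-1.53 ± 0.22, adjusted p = 4.35e-11), as did ORC1, the largest subunit of the origin recognition complex (-2.85 ± 0.39, adjusted p = 5.67e-12). ORC1 had the lowest median over the 25 comparisons of the licensing genes (-2.08) and ORC6 the highest (-1.14). ORC6 went from 404 untreated to 243 on PMD-Sen day 0, 419 on day 1 and 149 on day 16, and was at 60.9 on DDR-Sen day 0. GMNN, the inhibitor of CDT1, was called lower in 21 comparisons, with a median of -1.29.

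The 8 origin firing genes include MCM10 and CDC45, whose falls were among the deepest. The median of the group ranged from -2.64 to -0.47. MCM10, which helps to activate the helicase (chr10:13161558-13211110, + strand), had the lowest median of the group (-2.43). It went from 330.1 untreated to 25.6, 240.1, 181, 105, 72.6, 77.9, 97.5 and 36.2 in PMD-Sen. Over the Ca2+-Sen days it stood at 61.6, 161, 186, 119.6, 103, 91.4, 37.4 and 124. The DDR-Sen levels were 12.2, 6.52, 10.8, 32.3, 23.3, 15.8, 12.9 and 13.1, and the RS level was 8.93, so that its levels in DDR-Sen and RS lay below every level in PMD-Sen and Ca2+-Sen except that of PMD-Sen day 0. CDC45, the helicase subunit loaded at firing, followed with a median of -2.41 and a lowest change of -4.83 ± 0.42, adjusted p = 2.41e-28 in RS. GINS2 was lowest in RS as well (-4.10 ± 0.46, adjusted p = 2.43e-17). GINS4 had the highest median (-0.94) and fell less by day 0 after doxorubicin than after SDS or KCl. Its level went from 604 untreated to 387 on DDR-Sen day 0 and 146 on day 1, while it was already at 148 on PMD-Sen day 0 and 149.6 on Ca2+-Sen day 0. GINS4 was lower on DDR-Sen day 1 than on day 0 by a log2 difference of -1.40 (95% interval -1.94 to -0.87, adjusted p = 4.36e-05). CDC7, the kinase that sets off firing, and its activator DBF4 were each called lower in 22 comparisons, with medians of -1.54 and -1.37. GINS1 and GINS3, subunits of the GINS complex, were called lower in 21 and 16, with lowest changes of -2.29 ± 0.28, adjusted p = 6.32e-15 on PMD-Sen day 0 and -2.37 ± 0.46, adjusted p = 4.26e-06 on DDR-Sen day 6. Exons on the other strand cover 23.6% of the exon bases of GINS4 and 10.9% of those of GINS3, so their counts may hold reads of other genes. The misses of GINS1 were days 1 and 2 of PMD-Sen and Ca2+-Sen.

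The 7 polymerase genes had a median from -1.65 to -0.29 in the 25 comparisons. POLE2, an accessory subunit of polymerase epsilon, had the lowest median (-1.96) and POLE, its catalytic subunit, the highest (-0.77). POLE2 went from 120.4 untreated to between 12 and 98.6 in the treated groups and RS, and POLE from 916 to between 304 and 737. PRIM1, the primase that makes the RNA primers, was the lowest member on Ca2+-Sen day 0 (-3.58 ± 0.50, adjusted p = 8.29e-12), where its level was 7.63 against 91.4 untreated. It had returned to 55.3 on day 1, a difference of 2.86 (95% interval 1.63 to 4.08, adjusted p = 3.36e-05). POLA1, the catalytic subunit of polymerase alpha that PRIM1 works with, was called lower in all 25 comparisons, with changes from -2.70 to -0.79. POLA2, of the same complex, was called in 10. A same-strand exon overlap covers 35.1% of its exon bases and 16.2% of those of PRIM1, which leaves their counts uncertain. POLD1 and POLD3, the catalytic and an accessory subunit of polymerase delta, were called lower in 21 comparisons each and were lowest on DDR-Sen day 0, at -1.65 and -1.61.

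Among the 10 genes of the clamp, its loaders, flap and nick processing and RPA, the clamp itself stood apart. PCNA (chr20:5114953-5126622, - strand), also known as a target of p53, went from 2134 untreated to 954, 1561, 2051, 1769, 1609, 1373, 1599 and 1367 over the PMD-Sen days. In Ca2+-Sen it was at 1718, 1892, 1869, 1667, 1720.4, 1491, 1285 and 1453. After doxorubicin it stood at 6672, 2566, 2028, 1742, 1681, 1459, 1525 and 1344, and in RS at 1075. The day 0 and day 1 levels of DDR-Sen were the only ones above the untreated level. On day 0 the log2 change was 1.64 ± 0.14, adjusted p = 1.88e-28, where PMD-Sen had -1.16 ± 0.13, adjusted p = 1.24e-18 and Ca2+-Sen -0.31 ± 0.10, adjusted p = 0.00677. The difference on day 0 was -2.81 (95% interval -3.18 to -2.43, adjusted p = 6.50e-46) for PMD-Sen minus DDR-Sen and -1.96 (95% interval -2.31 to -1.61, adjusted p = 3.92e-26) for Ca2+-Sen minus DDR-Sen. From DDR-Sen day 4 on PCNA was called lower on each day, down to -0.67 on day 16.

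RFC3, a subunit of the clamp loader, had the lowest median of this group (-1.98). It went from 389 untreated to 97.2 on PMD-Sen day 16, 194 on Ca2+-Sen day 16, 64.6 on DDR-Sen day 16 and 69.7 in RS. LIG1, which seals the nicks between Okazaki fragments, stayed near its untreated 619 on DDR-Sen day 0, at 710.3 (0.20 ± 0.17, adjusted p = 0.445), while it was at 184 on PMD-Sen day 0 and 128 on Ca2+-Sen day 0. Ca2+-Sen minus DDR-Sen was -2.47 (95% interval -2.97 to -1.98, adjusted p = 1.18e-20) for LIG1 on that day, and by DDR-Sen day 1 LIG1 was at 396. The other loader subunits RFC2, RFC4 and RFC5 were called lower in 19, 21 and 15 comparisons, with medians of -0.95, -1.25 and -0.77. DSCC1, part of an alternative loader, was called in 20 and was lowest on Ca2+-Sen day 0 (-2.31 ± 0.32, adjusted p = 3.22e-12). FEN1, the flap nuclease, was called lower in 22 comparisons with a median of -1.15. RPA2, a subunit of the single-strand binding protein RPA, had the highest median of all members (-0.068). Its levels lay between 461 and 746 in the treated groups and RS against 616 untreated, and the one call was DDR-Sen day 0 (-0.42 ± 0.16, adjusted p = 0.0304). RPA3, the smallest subunit of RPA, was lowest on Ca2+-Sen day 0 (-1.27 ± 0.30, adjusted p = 1.06e-04) and called in 10 comparisons.

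**Figure D3:**
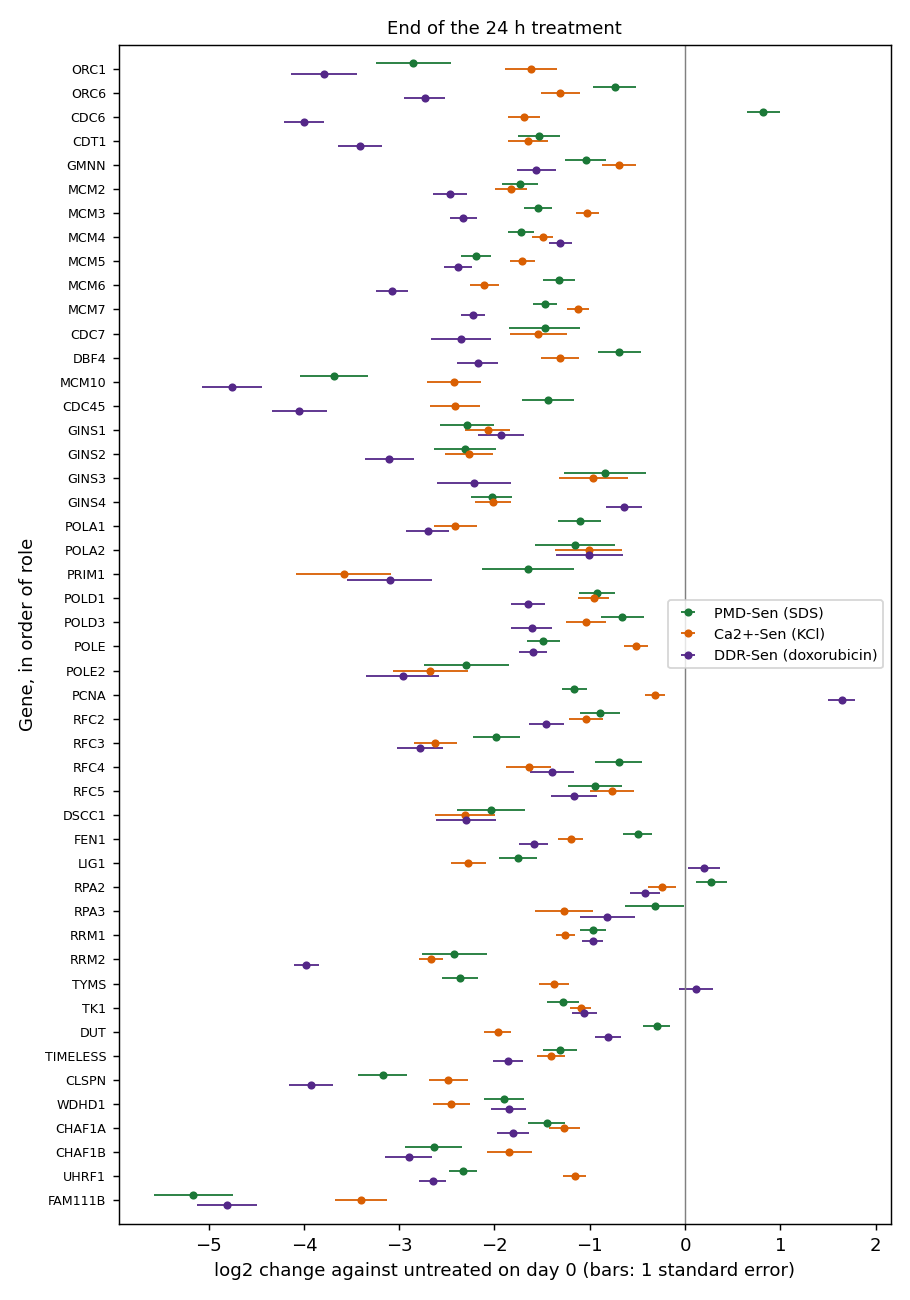
Log2 change against untreated at the end of the treatment (horizontal axis) for each member (vertical axis) under the 3 inducers, with bars of 1 standard error. CDC6 is split most widely, from -4.00 in DDR-Sen to 0.82 in PMD-Sen, and PCNA, LIG1, TYMS and GINS4 lie farther right in DDR-Sen than in PMD-Sen and Ca2+-Sen.

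The medians of the 5 nucleotide supply genes over the 25 comparisons ran from -2.42 for RRM2 to -0.82 for DUT. RRM2, the S phase subunit of ribonucleotide reductase (chr2:10122568-10211010, + strand), went from 3139 untreated to 586, 1550.2, 2075, 1462, 812, 749, 959 and 496 over the PMD-Sen days. The Ca2+-Sen levels were 496, 1859.5, 2210.0, 1388, 1569, 969.7, 398 and 1551. In DDR-Sen it was at 199.5, 36, 71.2, 334, 353, 158, 238 and 167, and in RS at 103. The level of DDR-Sen day 1 was the lowest, a log2 change of -6.45 ± 0.18, adjusted p = 7.44e-271, and every DDR-Sen level of RRM2 lay below every PMD-Sen and Ca2+-Sen level. Its standard error was 0.61 on Ca2+-Sen day 6, 0.57 on PMD-Sen day 16 and 0.80 in RS, against a median of 0.13, and on Ca2+-Sen day 6 the change of -1.69 was not called (adjusted p = 0.0515). Other members also had wide errors on Ca2+-Sen day 6 and in RS. On Ca2+-Sen day 6 MCM6 had 0.27 against 0.14 on days 4 and 8, and MCM3 0.26 against 0.13, while RPA2 had 0.17 against 0.15. In RS the errors of MCM4, PCNA and GINS2 were 0.23, 0.23 and 0.46, against medians over the comparisons of 0.12, 0.11 and 0.25. That of RPA2 in RS was 0.17, against a median of 0.15. A same-strand exon overlap covers 20.2% of the exon bases of RRM2. RRM1, the other subunit of the reductase, moved less, from 2492 untreated to 1202 on PMD-Sen day 16, 1522 on Ca2+-Sen day 16, 827 on DDR-Sen day 16 and 868 in RS. Per kilobase of exon, RRM2 stood at 0.989 times RRM1 in untreated cells, 0.324 on PMD-Sen day 16, 0.799 on Ca2+-Sen day 16, 0.0235 on DDR-Sen day 1 and 0.0931 in RS. Exon length here is that of all annotated exons of a gene merged, not of a single transcript.

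TK1, the thymidine kinase of S phase (chr17:78174079-78187204, - strand), was called lower in all 25 comparisons, with a level of 1899.5 untreated and 782, 647, 1010.3, 982, 597, 421, 602 and 304 over the PMD-Sen days. Over the Ca2+-Sen days it stood at 889, 789, 1029.8, 708, 811, 463, 251 and 883. The DDR-Sen levels were 913, 166, 79.9, 139, 146, 96.5, 82.7 and 106, and the RS level was 81.3. On day 0 the 3 inducers lay close together, and from day 1 on DDR-Sen was below both others on every day. The step from DDR-Sen day 0 to day 1 was -2.46 (95% interval -2.83 to -2.09, adjusted p = 1.17e-34). TYMS, thymidylate synthase (chr18:657653-673578, + strand), started from 832 untreated and went to 162, 249, 463, 428, 341, 249, 361 and 253 in PMD-Sen. In Ca2+-Sen it was at 321, 429, 544, 379, 463, 322, 253 and 413, and in DDR-Sen at 901, 375, 323, 319, 300.1, 180.0, 220.3 and 178, with 109 in RS. DDR-Sen day 0 was the only comparison in which TYMS was not called (0.11 ± 0.18, adjusted p = 0.714), and the step from there to day 1 was -1.26 (95% interval -1.72 to -0.80, adjusted p = 1.38e-05). Exons of ENOSF1 and TYMSOS on the other strand cover 46.6% of the exon bases of TYMS. DUT, which clears dUTP, moved least of the 5, with a median of -0.82 and its lowest level on Ca2+-Sen day 0 (261 against 1022 untreated), and exons on the other strand cover 14.5% of its exon bases.

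**Figure D4:**
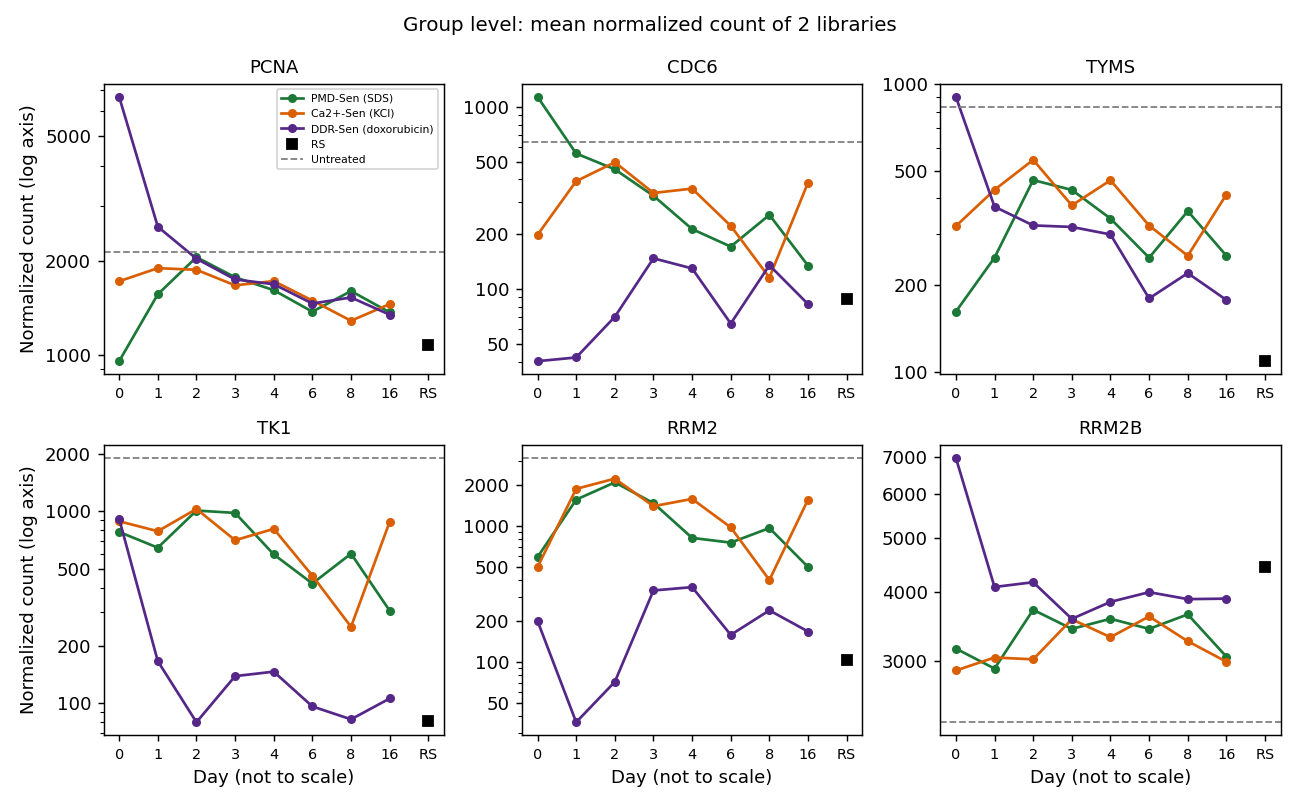
Mean normalized count of 2 libraries (vertical log axes) by day and in RS (horizontal axes, not to scale) for PCNA, CDC6, TYMS, TK1, RRM2 and RRM2B, with the untreated level as a dashed line. PCNA reaches 6672 on DDR-Sen day 0 and CDC6 1136 on PMD-Sen day 0, RRM2 drops to 36 on DDR-Sen day 1, and RRM2B lies above its untreated level everywhere.

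Of the 7 fork protection and chromatin genes, CLSPN (claspin, which relays the replication checkpoint) had the lowest median, -2.48, and CHAF1A, a subunit of the chromatin assembly factor CAF-1, the highest, -1.09. CLSPN went from 664 untreated to 73.6 on PMD-Sen day 0, 626 on day 1 and 99.1 on day 16. On the same days it was at 119, 432 and 354 in Ca2+-Sen, and at 43.8, 17.2 and 37.4 in DDR-Sen. On PMD-Sen day 1 its change was not called (-0.087 ± 0.18, adjusted p = 0.848), while it was called lower on every day of DDR-Sen. CHAF1A went from 778 untreated to 364, 489 and 293 on day 16 of the 3 inducers and 325 in RS. FAM111B, a protease of replicating cells (chr11:59107237-59127412, + strand), had the deepest fall of any member on PMD-Sen day 0. From 385 untreated it went to 10.8, 198, 293, 162, 114, 103, 163 and 56.9 over the PMD-Sen days. The Ca2+-Sen levels were 36.4, 124, 309.6, 227, 194, 133, 60.4 and 221. After doxorubicin it stood at 13.8, 21.7, 30.3, 84.8, 74.9, 29.5, 50.2 and 26.1, and in RS at 16.4. The change on PMD-Sen day 0 was -5.16 ± 0.41, adjusted p = 7.78e-34, and the step up to day 1 4.20 (95% interval 3.26 to 5.13, adjusted p = 5.34e-17). UHRF1, which guides maintenance of DNA methylation, was called lower in all 25 comparisons, from -0.54 to -2.86. TIMELESS, which protects the fork together with CLSPN, was called in 23, WDHD1, which links polymerase alpha to the helicase, in 24 and CHAF1B, another subunit of CAF-1, in 23, with medians of -1.31, -1.50 and -1.66. PMD-Sen day 1 was among the misses of all 3.

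The return between day 0 and day 1 was tested as the difference of 2 log2 changes, with an error in which the untreated libraries enter both changes, so that too few genes are called. In PMD-Sen 33 of the 48 members were called higher on day 1 than on day 0 (beside 15.6% of all tested genes) and CDC6 alone lower (beside 13.5%). In Ca2+-Sen 31 were higher (beside 20.1%) and 0 lower (beside 16.5%), with 0 lower at an unadjusted p under 0.05 and 0 with the error of the treated libraries alone. In DDR-Sen 3 were higher, MCM6, POLE and MCM3 (beside 1.28%), and 7 lower, RRM2, TK1, GINS4, PCNA, CLSPN, TYMS and LIG1 (beside 2.27%). The median difference was 1.11 in PMD-Sen, 0.96 in Ca2+-Sen and 0.061 in DDR-Sen.

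After day 1 few members were called from one day to the next. In all but 1 of these steps at most 2 members were called, and the calls were TYMS and TK1 higher on PMD-Sen day 2, RRM2 and TK1 lower on PMD-Sen day 4, TK1 lower on PMD-Sen day 16, FAM111B higher on Ca2+-Sen day 2, RRM2 lower on Ca2+-Sen day 3, TK1 lower on Ca2+-Sen day 8, RRM2 higher on DDR-Sen days 2 and 3 with CLSPN on day 3, UHRF1 lower on DDR-Sen day 6 and CDC6 higher on DDR-Sen day 8. Of all tested genes, 1.12%, 0.511%, 0.0941%, 0.0202%, 0.00672% and 0.0605% were lower in the PMD-Sen steps in order of days and 2.55%, 0.363%, 0.00672%, 0.0672%, 0.00672% and 0.0605% higher. In the Ca2+-Sen steps 0.847%, 0.134%, 0.121%, 0.0941%, 1.29% and 3.02% were lower and 0.867%, 0.0471%, 0.0403%, 0.101%, 2.17% and 4.15% higher, and in the DDR-Sen steps 0.128%, 0.0538%, 0.0269%, 0.397%, 0.296% and 0.141% lower and 0.457%, 0.309%, 0.00672%, 0.282%, 0.645% and 0.235% higher. The steps with no call had between 0 and 19 members at an unadjusted p under 0.05, with the highest count for the step from PMD-Sen day 2 to day 3, where all 48 members lay below 0 with a median of -0.41. The error of the treated libraries alone gave more calls. By it 14 members (beside 2.81% of all tested genes) were lower in that step, 9 members (beside 2.31% of all tested genes) from PMD-Sen day 8 to day 16, 12 members (beside 0.961% of all tested genes) from Ca2+-Sen day 2 to day 3, 12 members (beside 6.16% of all tested genes) from Ca2+-Sen day 6 to day 8 and 7 members (beside 2.04% of all tested genes) from DDR-Sen day 4 to day 6, while 9 members (beside 1.06% of all tested genes) were higher from DDR-Sen day 2 to day 3. Over days 2, 3 and 4 the members' median in PMD-Sen went from -0.49 to -0.91 and -1.29. The exception was the step from Ca2+-Sen day 8 to day 16, in which 26 members were called higher, beside 4.15% of all tested genes. RRM2 led it with 1.96 (95% interval 1.64 to 2.28, adjusted p = 1.63e-30), from 398 to 1551 normalized counts, and 47 of the 48 members lay above 0. On Ca2+-Sen day 8 the background was also wide, with 17.8% of all tested genes called lower than untreated and 15.5% higher, against 5.53% and 4.72% on day 6 and 6.09% and 5.79% on day 16. Several members had wide errors on Ca2+-Sen day 6, which limits the steps to and from that day.

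Some members stood at other levels on day 16 than on day 0. In PMD-Sen 5 members were called lower on day 16 than on day 0, CDC6, CDC45, TK1, DBF4 and FEN1 (beside 14.6% of tested genes), and 4 higher, CHAF1B, GINS4, TYMS and PCNA (beside 13.7%), so that shares near the background moved in each direction. In DDR-Sen 6 were lower, TK1, TYMS, PCNA, LIG1, GINS4 and RRM1 (beside 6.45%), and 4 higher, MCM6, CDC6, ORC6 and CDT1 (beside 6.22%). In Ca2+-Sen 27 were higher (beside 19.2%) and 0 lower (beside 15.3%, with 0 lower at an unadjusted p under 0.05 and 1, beside 23.4% of all tested genes, with the error of the treated libraries alone).

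Between inducers on the same day, the members were higher in PMD-Sen and Ca2+-Sen than in DDR-Sen, most widely on days 1 and 2. For PMD-Sen minus DDR-Sen, 16, 40, 39, 17, 5, 9, 11 and 1 of the 48 members were called higher over the 8 days, beside 15%, 6.89%, 4.71%, 1.22%, 0.598%, 0.585%, 0.766% and 0.175% of all tested genes. Lower calls were PCNA, TYMS, LIG1 and GINS4 on day 0 and PCNA on day 1, and 13.6%, 5.46%, 2.61%, 0.585%, 0.155%, 0.0403%, 0.0471% and 0.0202% of all tested genes were lower over the 8 days. For Ca2+-Sen minus DDR-Sen the higher calls numbered 21, 37, 37, 15, 19, 10, 4 and 35, beside 18.3%, 4.67%, 2.47%, 1.15%, 1.02%, 0.639%, 3.02% and 4.43%, and lower calls were LIG1, PCNA, TYMS, GINS4 and DUT on day 0 and PCNA on day 1, against 18.8%, 3.09%, 0.746%, 0.397%, 0.128%, 0.0336%, 1.87% and 1.96% of all tested genes. On days 2 to 16 no member was called lower in either contrast, nor had any an unadjusted p under 0.05 in that direction. RRM2 had the widest gap, 5.43 (95% interval 4.97 to 5.88, adjusted p = 7.10e-118) for PMD-Sen and 5.69 (95% interval 5.29 to 6.10, adjusted p = 9.95e-165) for Ca2+-Sen on day 1. TK1 was called higher than in DDR-Sen on each of days 1 to 16 in both. On day 16 it was the only call for PMD-Sen, at 1.52 (95% interval 0.99 to 2.04, adjusted p = 9.07e-05), where RRM2 differed by 1.57 (95% interval 0.41 to 2.74, adjusted p = 0.822). The comparisons share their untreated libraries.

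Up to day 6, fewer members were called between PMD-Sen and Ca2+-Sen than between either of them and DDR-Sen. Over the 8 days of PMD-Sen minus Ca2+-Sen, 9, 3, 0, 0, 0, 0, 10 and 0 members were called higher, beside 20.5%, 1.51%, 1.04%, 0.0605%, 0.0403%, 0%, 1.8% and 0.746% of all tested genes, and 9, 1, 0, 0, 1, 0, 0 and 11 lower, beside 18.1%, 2.92%, 1.35%, 0.0874%, 0.108%, 0.0134%, 1.49% and 1.98%. None was higher on days 4 and 16 or lower on day 8 at an unadjusted p under 0.05 either. On days 2, 3 and 6, which had no call, 0, 1 and 0 members had an unadjusted p under 0.05, and with the error of the treated libraries alone 0, 1 and 0 were called, the 1 beside 0.329% of all tested genes higher. The wide errors of several members on Ca2+-Sen day 6 limit what the test of that day can show. Day 0 was split, in each direction at a share near that of all tested genes. Higher in PMD-Sen were CDC6, PRIM1, DUT, POLA1, CDC45, RFC4, MCM6, FEN1 and RPA2. Lower were FAM111B, MCM10, ORC1, UHRF1, TYMS, POLE, PCNA, MCM3 and MCM5. FAM111B differed by -1.76 (95% interval -2.73 to -0.78, adjusted p = 0.00165) and PRIM1 by 1.93 (95% interval 0.57 to 3.30, adjusted p = 0.0173). On day 8 all 10 calls were higher in PMD-Sen and on day 16 all 11 lower, MCM10 by -1.78 (95% interval -2.62 to -0.94, adjusted p = 0.00338). The order of these inducers thus turned between days 8 and 16, the step over which Ca2+-Sen rose.

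RS, the only state reached without an added agent, was set beside day 16 of each inducer. Of 48 members, 0 were called between DDR-Sen day 16 and RS (beside 0.0941% of tested genes lower and 0.0538% higher), 1 had an unadjusted p under 0.05 (TYMS, higher in DDR-Sen), and the median difference was 0.048. With the error of the treated libraries alone 0 were called as well. The wide errors of several members in RS limit what these tests can show. The widest were GINS2, 0.86 (95% interval -0.22 to 1.93, adjusted p = 1), and CDC45, 0.80 (95% interval -0.25 to 1.85, adjusted p = 1), and intervals of this width leave room for sizeable differences. PMD-Sen day 16 was higher than RS in 4 members, MCM10, TK1, CHAF1B and TYMS (beside 0.309%), and Ca2+-Sen day 16 in 31 (beside 2.51%), with none lower in either (beside 0.376% and 1.74%, and 0 and 0 at an unadjusted p under 0.05, and 0 in both with the error of the treated libraries alone). MCM10 differed by 2.02 (95% interval 1.00 to 3.04, adjusted p = 0.0243) for PMD-Sen and 3.80 (95% interval 2.92 to 4.68, adjusted p = 1.34e-14) for Ca2+-Sen. RS cells were at a higher population doubling level than the untreated cells, and their libraries had the highest median depth, and neither can be told apart from the route to senescence.

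Other genes of the same processes, the companion genes, had higher medians than the members in every role. Of 45 such genes, 43 were tested, RNASEH2A fell under the level filter and ASF1B was listed at 0. Over the 8 days, 18, 3, 7, 13, 17, 15, 16 and 20 of the 43 were called lower in PMD-Sen and 6, 5, 3, 1, 1, 2, 2 and 2 higher. In Ca2+-Sen 28, 6, 3, 12, 13, 16, 27 and 13 were lower and 5, 4, 1, 1, 1, 2, 3 and 2 higher, and in DDR-Sen 26, 20, 21, 17, 20, 23, 19 and 24 lower and 2, 3, 2, 1, 2, 2, 2 and 2 higher, with 21 and 2 in RS. The shares of all tested genes called lower stand above. Those called higher were 19.8%, 9.65%, 8.81%, 5.43%, 7.33%, 5.79%, 5.75% and 9.64% over the PMD-Sen days, 23.6%, 5.37%, 1.77%, 4.77%, 4.99%, 4.72%, 15.5% and 5.79% over the Ca2+-Sen days, 13%, 8.52%, 5.19%, 4.72%, 7.93%, 10.7%, 10.3% and 13.2% over the DDR-Sen days and 11.6% in RS. The median gene of each role lay at -0.25 for licensing (members -1.47), -0.85 for firing (-1.55), -0.20 for polymerases (-0.97), -0.46 for the clamp group (-0.95), -0.044 for nucleotide supply (-1.37) and -0.43 for fork and chromatin genes (-1.66), each a median over genes of the median log2 change over 25 comparisons. The members were listed with results of these data known, so the gap between the lists is a description. ATAD5, which unloads PCNA, and TICRR, which helps to load CDC45, were among those with the lowest medians of the 43 (-1.57 and -1.34). DNMT1, the maintenance DNA methyltransferase that UHRF1 guides, was called lower in all 25 comparisons, with a median of -0.95.

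**Figure D5:**
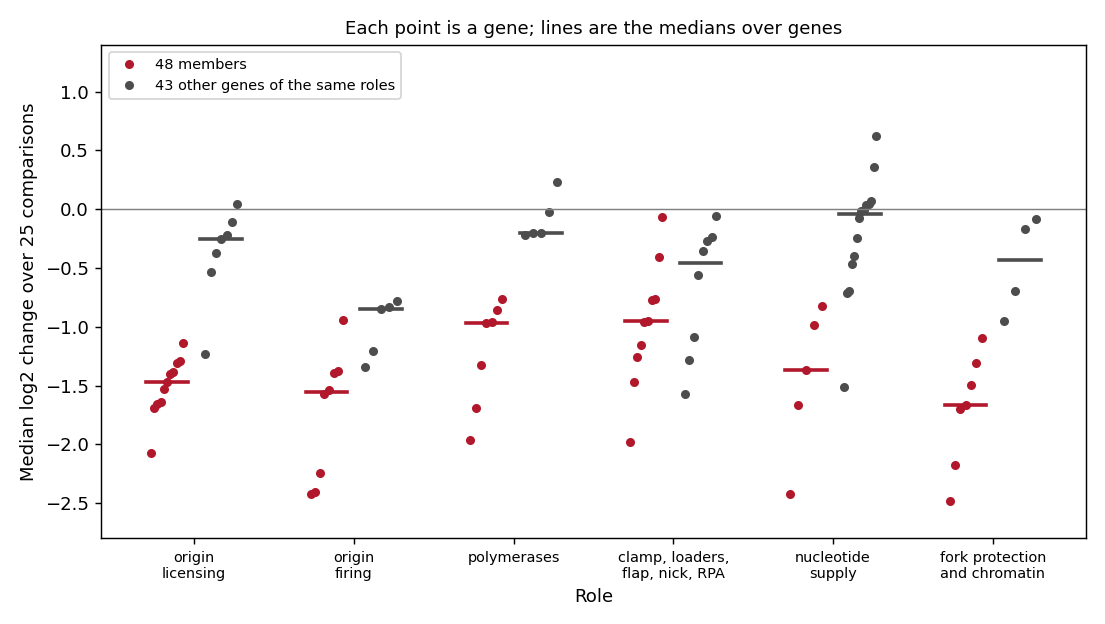
Median log2 change over 25 comparisons (vertical axis) of each member and of each of 43 other genes, by role (horizontal axis); lines are medians over genes. In every role the members' line is lower, -1.37 against -0.044 for nucleotide supply, where RRM2B at 0.62 is the highest point.

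The highest medians of the 43 were those of RRM2B, TK2 and POLD4. RRM2B, the p53-induced small subunit that can replace RRM2 in the reductase outside S phase, was called higher in 24 of 25 comparisons, PMD-Sen day 16 being the exception (0.39 ± 0.18, adjusted p = 0.117). It went from 2329 untreated to 3161, 2909.8, 3713, 3430.4, 3577, 3431, 3643 and 3057 over the PMD-Sen days. Over the Ca2+-Sen days it stood at 2887, 3046, 3024, 3569.7, 3315, 3612, 3259.6 and 2993. In DDR-Sen it was at 6973, 4082, 4163, 3576, 3837, 3995, 3881 and 3889, and in RS at 4425. All treated levels lay above the untreated one, and the highest was DDR-Sen day 0, the day of the PCNA peak. Per kilobase of exon, RRM2B stood at 0.712 times RRM2 untreated, 1.72 on PMD-Sen day 2, 1.31 on Ca2+-Sen day 2, 109 on DDR-Sen day 1 and 41.2 in RS, and above 1 in every treated group. The merged exon lengths were 5323 bases for RRM2 and 5548 for RRM2B, and ratios near 1 depend on this choice of length. TK2, the mitochondrial thymidine kinase, had a median of 0.36 and was called higher in 14 comparisons and lower in 1, Ca2+-Sen day 0 (-1.56 ± 0.16, adjusted p = 2.96e-21), while TK1 was lower in all 25. POLD4, a small subunit of polymerase delta, had a median of 0.23 with 3 calls higher and 1 lower.

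The pattern of RRM2 over the 25 comparisons was matched most closely, outside the members, by IQGAP3, TOP2A, NCAPG, HMMR and ESCO2, with root mean square differences in log2 change of 0.259, 0.309, 0.355, 0.358 and 0.38. The median tested gene differed by 3.07. Among the members CLSPN, MCM10 and CDC45 came next to RRM2, at 0.442, 0.52 and 0.549, and RPA2 and PCNA were farthest, at 2.97 and 2.84. The 25 comparisons share the untreated libraries, so these distances describe likeness only.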

How the data were processed

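The mRNA of WI-38 cells was sequenced on a NovaSeq 6000 in 2 libraries per group. The submitters' notes name Trim Galore, HISAT2, HTSeq, featureCounts and DESeq2 with GRCh38, without versions, and the strand setting of the counting is not given in the sources used here. Of 52 files, 25 hold distinct tables and 27 repeat one of them and were not used. Each table compares 1 day or RS with the untreated libraries over 59408 genes. The deposited signal is the mean normalized count over the 4 libraries compared. The authors' own fit also gives log2 changes and their errors, and the deposited p-value belongs to that fit. Because the tables hold little else, these columns were used here as measurements. The deposited statistic and adjusted p-values were not used or compared. A malformed row that names no gene, found in 23 of the tables, was left out.

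Levels of treated and untreated cells were computed from the mean and the fold change and put on 1 scale by the untreated level of 8963 genes above 200 in every table. Depths were read from the step that 1 read makes in low values and cover counting only. Genes with a mean level of at least 10 over 26 groups were tested (14876). P-values were adjusted by Benjamini-Hochberg in each table apart, and genes were called under 0.05. For 51 contrasts between comparisons, the difference of 2 log2 changes was divided by its error, both squared errors being summed (two-sided normal test, 95% intervals). Since both errors hold the untreated libraries, this calls too few genes, and the error of the treated libraries only was an alternative. Other alternatives were the Benjamini-Yekutieli adjustment, a log2 change of at least 1, no level filter, a mean level of at least 100, centring on the median gene and levels not rescaled. The calculations were tested on simulated data. Python 3.11.15, pandas 2.3.3 and SciPy 1.17.1 were used. Exon overlaps come from GENCODE v29, promoters from RefSeq (GRCh38.p14).

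The members and lists were chosen with earlier results of these data known. Every member may be named. Described with levels were the members with the lowest and highest median in each role, MCM2 to MCM7, PCNA, the 5 nucleotide supply genes, FAM111B and members called higher. Companion genes named by that rule were the 3 lowest, the 3 highest and those called higher in at least 13 tables, and the 5 genes nearest RRM2 were named. Some genes are not reported here. Other members and DNMT1 were chosen after their values were seen.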

Additional observations from a re-analysis of the deposited data

Results flagged for a closer look

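The effects of 2 inducers against the same untreated cells differed by the test of the difference itself in the following numbers of members. Between PMD-Sen and DDR-Sen the counts were 20, 41, 39, 17, 5, 9, 11 and 1 over the 8 days in order, beside 28.7%, 12.3%, 7.32%, 1.81%, 0.753%, 0.625%, 0.813% and 0.195% of all tested genes. Between PMD-Sen and Ca2+-Sen they were 18 on day 0, 4 on day 1, 1 on day 4, 10 on day 8 and 11 on day 16, beside 38.7%, 4.42%, 0.148%, 3.29% and 2.72%. For Ca2+-Sen and DDR-Sen they were 26, 38, 37, 15, 19, 10, 4 and 35 on the same 8 days, beside 37.1%, 7.76%, 3.22%, 1.55%, 1.14%, 0.672%, 4.89% and 6.39%. The day 0 count between PMD-Sen and Ca2+-Sen was near the share of all tested genes.

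A pair of members was called in opposite directions under different inducers on day 0. CDC6, the MCM loader, was higher than untreated in PMD-Sen and lower in the others, with a log2 difference of 4.82 for PMD-Sen minus DDR-Sen and 2.52 for PMD-Sen minus Ca2+-Sen. PCNA, the sliding clamp, was higher than untreated in DDR-Sen and lower in the others, with -2.81 for PMD-Sen minus DDR-Sen and -1.96 for Ca2+-Sen minus DDR-Sen. Groups of 2 libraries with no values per library allowed no look at single samples.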

How the results depend on the processing

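Calls rest on 2 libraries per group, and the depth of the untreated libraries, the shallowest, enters every comparison. Leaving out a library could not be run, since the deposited tables hold no values per library. No paired analysis was possible because the tables carry 1 value per comparison and none per library. Only centring could reverse the direction of a member's call against untreated, since the other alternatives leave the log2 change as it is. Centring took off medians between -0.036 and 0.016 and reversed none. Of 1200 calls or missed calls, 278 were lost when a log2 change of at least 1 was also required. Under the Benjamini-Yekutieli adjustment 99 were lost, and 24 with no filter on level. A mean level of at least 100 kept 38 of the 48 members and so 950 of the pairs, and 9 of these were gained. With centring 3 of 1200 were gained. Without rescaling, 217 of the members' levels moved by more than the standard error of their log2 change and 1031 by less, and a member's untreated level differed by up to 0.56 on the log2 scale between tables, so levels hold only on the common scale, while log2 changes and calls do not use it. The counts of called genes that changed by more than 1.5 times, or to or from 0, follow, of members unless companion genes are named. The adjustment, the fold and the level filter change the calls by their construction, the error of the treated libraries only leaves out the untreated libraries' share of the error, and no other cause was tested.

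With a log2 change of at least 1 also required, lower against untreated were 4 on day 1, 0 on day 2 and 17 on day 3 in PMD-Sen, and 5 on day 1, 0 on day 2, 18 on day 3, 15 on day 4 and 11 on day 16 in Ca2+-Sen. Higher against untreated were 0 on day 0 in PMD-Sen. Companion genes lower against untreated were 8 on day 0, 1 on day 1, 0 on day 2, 4 on day 3, 7 on day 4, 6 on day 6, 4 on day 8 and 11 on day 16 in PMD-Sen, 11 on day 0, 1 on day 1, 0 on day 2, 3 on day 3, 3 on day 4, 7 on day 6, 12 on day 8 and 1 on day 16 in Ca2+-Sen, 13 on day 0, 12 on day 1, 11 on day 2, 8 on day 3, 8 on day 4, 12 on day 6, 10 on day 8 and 11 on day 16 in DDR-Sen, and 12 in RS. Companion genes higher against untreated were 0 on each day in PMD-Sen, 0 on each day in Ca2+-Sen, 1 on day 0, 0 on day 1, 0 on day 2, 0 on day 3, 0 on day 4, 0 on day 6, 0 on day 8 and 0 on day 16 in DDR-Sen, and 0 in RS. Lower between days were 0 (day 4 minus day 3) and 0 (day 16 minus day 8) in PMD-Sen, 0 (day 3 minus day 2) and 0 (day 8 minus day 6) in Ca2+-Sen, and 0 (day 6 minus day 4) in DDR-Sen. Higher between days were 0 (day 2 minus day 1) and 0 (day 16 minus day 0) in PMD-Sen, 13 (day 16 minus day 8) and 16 (day 16 minus day 0) in Ca2+-Sen, and 0 (day 1 minus day 0) and 0 (day 2 minus day 1) in DDR-Sen. Lower between inducers were 0 on day 1 for PMD-Sen minus DDR-Sen, 4 on day 0, 0 on day 1 and 0 on day 4 for PMD-Sen minus Ca2+-Sen, and 0 on day 1 for Ca2+-Sen minus DDR-Sen. Higher between inducers were 9 on day 0 and 11 on day 3 for PMD-Sen minus DDR-Sen, 4 on day 0 and 0 on day 1 for PMD-Sen minus Ca2+-Sen, and 11 on day 4 for Ca2+-Sen minus DDR-Sen. With the Benjamini-Yekutieli adjustment, lower against untreated were 15 on day 2 in PMD-Sen, and 9 on day 2 in Ca2+-Sen. Companion genes lower against untreated were 1 on day 1, 1 on day 2, 6 on day 3 and 10 on day 8 in PMD-Sen, and 8 on day 4, 9 on day 6 and 8 on day 16 in Ca2+-Sen. Companion genes higher against untreated were 3 on day 1, 1 on day 6 and 1 on day 16 in PMD-Sen, 2 on day 1 and 0 on day 2 in Ca2+-Sen, 1 on day 2 and 1 on day 4 in DDR-Sen, and 1 in RS. Lower between days were 1 (day 4 minus day 3) and 0 (day 16 minus day 8) in PMD-Sen, and 0 (day 3 minus day 2) and 0 (day 8 minus day 6) in Ca2+-Sen. Higher between days were 0 (day 16 minus day 0) in PMD-Sen, 17 (day 16 minus day 8) in Ca2+-Sen, and 1 (day 1 minus day 0), 0 (day 2 minus day 1), 0 (day 8 minus day 6) and 1 (day 16 minus day 0) in DDR-Sen. Lower between inducers were 5 on day 0, 0 on day 1 and 5 on day 16 for PMD-Sen minus Ca2+-Sen, and 0 on day 1 for Ca2+-Sen minus DDR-Sen. Higher between inducers were 5 on day 0, 0 on day 1 and 2 on day 8 for PMD-Sen minus Ca2+-Sen, and 12 on day 4, 6 on day 6 and 1 on day 8 for Ca2+-Sen minus DDR-Sen. Higher between day 16 and RS were 0 for PMD-Sen day 16 minus RS. With the error of the treated libraries only, lower between days were 2 (day 1 minus day 0), 3 (day 2 minus day 1), 14 (day 3 minus day 2), 5 (day 4 minus day 3), 1 (day 6 minus day 4), 9 (day 16 minus day 8) and 11 (day 16 minus day 0) in PMD-Sen, 12 (day 3 minus day 2), 1 (day 6 minus day 4), 12 (day 8 minus day 6) and 1 (day 16 minus day 0) in Ca2+-Sen, and 2 (day 2 minus day 1) and 7 (day 6 minus day 4) in DDR-Sen. Higher between days were 4 (day 2 minus day 1) and 9 (day 16 minus day 0) in PMD-Sen, 3 (day 2 minus day 1) in Ca2+-Sen, and 7 (day 1 minus day 0), 9 (day 3 minus day 2) and 10 (day 16 minus day 0) in DDR-Sen. Lower between inducers were 2 on day 1 for PMD-Sen minus DDR-Sen, and 2 on day 1, 6 on day 4 and 30 on day 16 for PMD-Sen minus Ca2+-Sen. Higher between inducers were 28 on day 0, 29 on day 3, 14 on day 4, 17 on day 6, 25 on day 8 and 6 on day 16 for PMD-Sen minus DDR-Sen, 16 on day 0, 10 on day 1, 1 on day 3 and 22 on day 8 for PMD-Sen minus Ca2+-Sen, and 29 on day 3, 31 on day 4, 20 on day 6 and 10 on day 8 for Ca2+-Sen minus DDR-Sen. Higher between day 16 and RS were 11 for PMD-Sen day 16 minus RS. With no filter on level, companion genes lower against untreated were 3 on day 2 in PMD-Sen. Lower between days were 0 (day 16 minus day 8) in PMD-Sen, and 0 (day 8 minus day 6) in Ca2+-Sen. Higher between days were 0 (day 16 minus day 0) in PMD-Sen, and 1 (day 1 minus day 0) and 0 (day 8 minus day 6) in DDR-Sen. Lower between inducers were 0 on day 1 for Ca2+-Sen minus DDR-Sen. Higher between inducers were 1 on day 1 for PMD-Sen minus Ca2+-Sen. Higher between day 16 and RS were 2 for PMD-Sen day 16 minus RS. With a mean level of at least 100, higher against untreated were 1 on day 1 in DDR-Sen. Lower between days were 2 (day 6 minus day 4) in DDR-Sen. Lower between inducers were 2 on day 1 for PMD-Sen minus DDR-Sen. With changes centred on the median of all tested genes, lower between days were 0 (day 16 minus day 8) in PMD-Sen. Higher between inducers were 1 on day 1 for PMD-Sen minus Ca2+-Sen.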
